A study of Homo sapiens with 8 samples.

Results

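The levels of 7 intermediate filament genes were measured in HEK293, a human embryonic kidney line. VIM (vimentin), INA (internexin alpha) and NEFL (the light neurofilament subunit) read above background on all 8 arrays, and PRPH (peripherin) on 6 of 8. NES (nestin) did so on 3 arrays, NEFH (the heavy subunit) on 1, and NEFM (the medium subunit) on 0. These last counts rest on the filter that drops dim probe sets. With all probe sets and the lower common background that goes with them, NES and NEFH were above it on 8 arrays, NEFM and PRPH on 7. Against a background taken from each array itself, still with all probe sets, NES and NEFH were above on 8 arrays, PRPH on 5 and NEFM on 4. None of the 7 genes passed the test in any comparison of EGF treatment or of the shELL cells with control. The members were all genes on the array with one of these 7 symbols in the authors' table of group means. All 7 were present, with 125 of the 287329 probe sets, and all 7 had a gene value among the 16145 genes tested. The rule uses gene symbols and no measured value.

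Intermediate filaments are rope-like polymers that give cells mechanical strength, and cell types differ in which subunits they make. Vimentin is the filament of mesenchymal and many cultured cells, nestin is its partner in dividing progenitors, and the neurofilament triplet, internexin alpha and peripherin build the filaments of neurons, peripherin mainly in the peripheral nervous system. HEK293 came from embryonic kidney and is known for carrying several neuronal filament subunits together with vimentin and keratins.

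The study hybridised total RNA to 8 Affymetrix exon arrays, 2 biological replicates for each of 4 groups: control HEK293 cells, described as wild type, unstimulated or with 50 ng/mL EGF for 1 h, and HEK293 cells with a stable knockdown of ELL (labelled shELL), unstimulated or with the same EGF treatment. ELL is a transcription elongation factor, and EGF is a growth factor that switches on immediate-early genes. All cells grew in RPMI medium with serum. The sources used here do not say whether the shELL cells are 1 clone or a pool, whether the control carries a vector, or which arrays were handled together. In these bulk samples, fewer cells of a type and less RNA per cell cannot be told apart.

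Values are log2 levels brought to 1 scale between arrays by quantile normalization. Background is 2.62, the 95th percentile of 42 olfactory receptor genes, which are not expected to be transcribed in kidney cells, and 49.9% of all genes lay above it. These 42 are the receptor genes that kept at least 3 probe sets after dim probe sets were dropped, so they are the brighter ones. Without that filter there were 231 receptor genes, with a 95th percentile of 1.54. ELL itself read 2.50 to 2.89 on the control arrays and 2.63 to 3.86 on the arrays labelled shELL, so its gene value was not lower there, and every difference below is one between arrays labelled shELL and arrays labelled control. EGR1, an immediate-early transcription factor, read 3.80 to 4.14 without EGF and 7.14 to 7.91 with it. Replicate arrays correlated at r = 0.784 in shELL with EGF and at 0.911 to 0.954 in the other groups, across genes. As deposited, the dimmest array by its upper quartile was replicate 1 of shELL with EGF. It also had the highest olfactory receptor median after normalization, 2.44, against 1.16 to 2.0 on the other arrays. Results that rest on that array are given with and without it.

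VIM (chromosome 10, 17270493 to 17279528, plus strand, in the deposited positions, for which the sources used here name no genome build) forms the vimentin network of mesenchymal cells. It read 5.60 and 6.09 in unstimulated control, 5.61 and 5.24 in control with EGF, 5.28 and 6.63 in unstimulated shELL, and 4.68 and 6.24 in shELL with EGF. Every array lay above its own olfactory receptor 95th percentile, which ran from 2.16 to 3.89. The replicates of each shELL group lay further apart than any control pair, and the 4 groups overlapped throughout. From highest to lowest the group means were 5.95 ± 0.96 (SD, n = 2) in unstimulated shELL, 5.84 ± 0.34 in unstimulated control, 5.46 ± 1.10 in shELL with EGF and 5.42 ± 0.27 in control with EGF. Each neighbouring pair in that order overlapped.

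INA (chromosome 10, 105036942 to 105049896, plus strand) encodes internexin alpha, a neurofilament partner of central neurons. It read 4.15 and 4.31 in unstimulated control, 4.0 and 4.24 in control with EGF, 4.02 and 4.47 in unstimulated shELL, and 3.21 and 4.64 in shELL with EGF. Both the lowest and the highest array belonged to shELL with EGF, and the other 6 arrays lay within 4.0 to 4.47. INA stood above its own array's olfactory receptor 95th percentile on 7 arrays, the exception being replicate 1 of shELL with EGF. The group means ran from 4.24 ± 0.32 (SD, n = 2) in unstimulated shELL through 4.23 ± 0.12 in unstimulated control and 4.12 ± 0.17 in control with EGF to 3.92 ± 1.01 in shELL with EGF, each overlapping the next.

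NEFL (chromosome 8, 24809023 to 24814025, minus strand) encodes the core subunit on which the other neurofilament proteins assemble. It read 2.95 and 2.98 in unstimulated control, 3.20 and 3.42 in control with EGF, 3.02 and 3.26 in unstimulated shELL, and 2.94 and 3.19 in shELL with EGF. Its SD over the 8 arrays, 0.17, was the smallest of the 7 genes and lay under the median of all genes, 0.36. NEFL exceeded the common background on every array, and its own array's olfactory receptor 95th percentile on 5. The group means fell from 3.31 ± 0.16 (SD, n = 2) in control with EGF to 2.96 ± 0.019 in unstimulated control, with unstimulated shELL at 3.14 ± 0.17 and shELL with EGF at 3.06 ± 0.18 between them, and each neighbouring pair overlapped.

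PRPH (chromosome 12, 49689021 to 49692439, plus strand) encodes peripherin, a filament of peripheral and autonomic neurons that can also assemble alone. It read 3.01 and 2.93 in unstimulated control, 2.59 and 2.60 in control with EGF, 3.16 and 2.94 in unstimulated shELL, and 3.79 and 3.16 in shELL with EGF. Both control arrays with EGF were the lowest 2 of the 8 and lay just under background, and replicate 1 of shELL with EGF was the highest. PRPH exceeded its own array's olfactory receptor 95th percentile on 4 arrays. The group means were 3.48 ± 0.44 (SD, n = 2) in shELL with EGF, 3.05 ± 0.15 in unstimulated shELL, 2.97 ± 0.054 in unstimulated control and 2.60 ± 0.0043 in control with EGF. The middle pair overlapped, while the arrays of the first and of the last pair did not.

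NEFM, NEFH and NES lay near or under background as gene values, and exceeded their own array's olfactory receptor 95th percentile on 2, 0 and 1 arrays. NEFM (chromosome 8, 24771450 to 24776580, plus strand), the medium subunit that shares its chromosome with NEFL, read 2.41 and 2.61 in unstimulated control, 2.28 and 1.97 in control with EGF, 2.49 and 2.25 in unstimulated shELL, and 2.58 and 1.80 in shELL with EGF. NEFH (chromosome 22, 29876224 to 29887379, plus strand), the heavy subunit typical of mature axons, read 1.76 and 1.95, 2.13 and 2.56, 2.0 and 1.68, and 3.36 and 1.74 in the same order of groups. NES (chromosome 1, 156638627 to 156647013, minus strand), the progenitor filament, read 2.71 and 2.01, 2.22 and 2.68, 2.48 and 2.17, and 3.44 and 2.20. NEFH, NES and PRPH all had their highest value on replicate 1 of shELL with EGF, the array whose olfactory receptor genes also read highest, while VIM, INA and NEFL had their lowest there. The part of that array's background in these values was not tested.

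**Figure D1:**
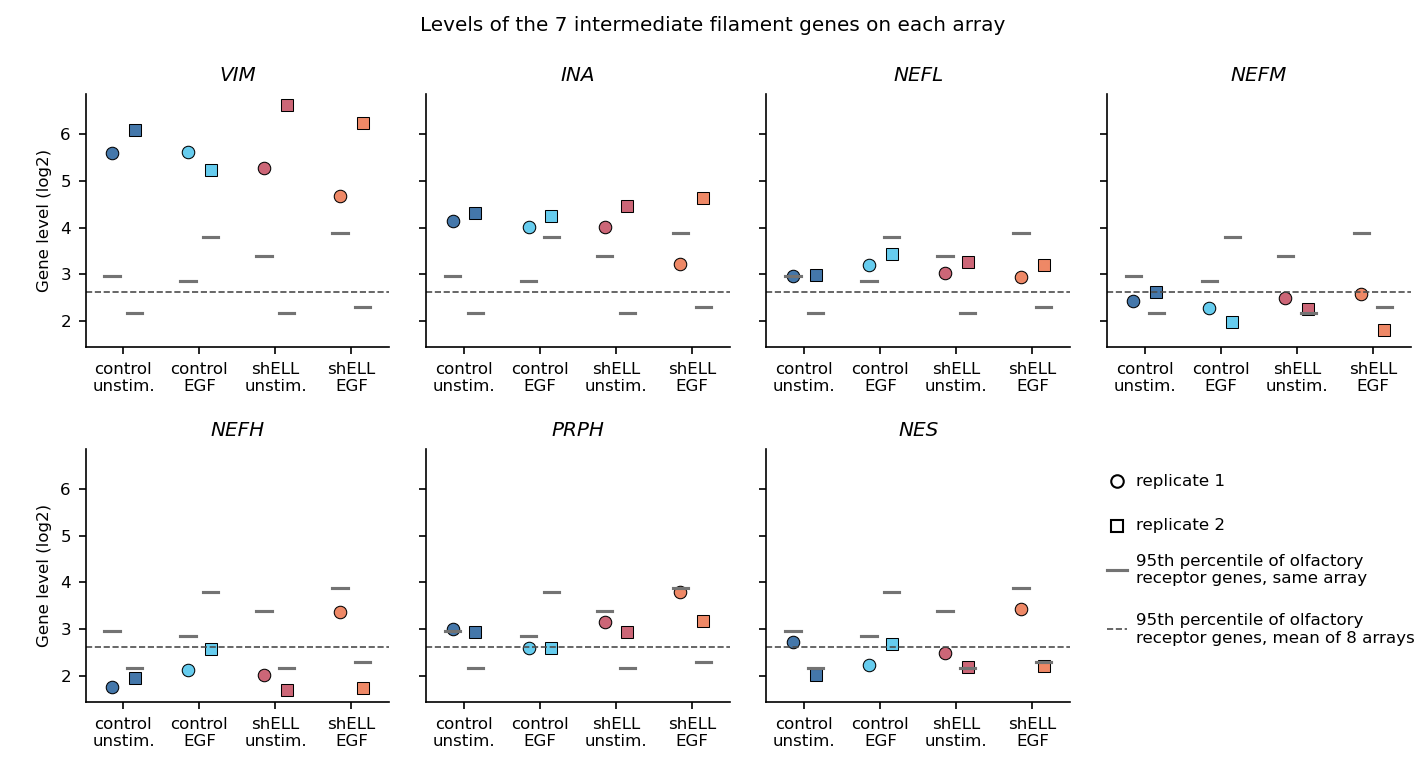
Each panel plots the log2 level of 1 gene on each of the 8 arrays (circles replicate 1, squares replicate 2) by group, with short grey bars for the 95th percentile of olfactory receptor genes on the same array and a dashed line for the common background of 2.62. VIM stands above both lines on all 8 arrays, while NEFM and NES mostly lie near or under them. NEFH is above its own array's grey bar on 0 arrays and above the dashed line on 1. Levels are not comparable between panels because probes differ.

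Exon arrays carry several probe sets for each gene along its length. Probes differ in their own brightness, so each probe set is read against background and not against the next. Of the 125 probe sets, 72 (57.6%) had a mean over the 8 arrays above the probe-set background of 2.49, against 42.6% of all probe sets on the array. The share was high in 3 genes, 14 of 15 for NEFL, 18 of 21 for VIM and 10 of 12 for INA. It was 7 of 15 for PRPH, 12 of 26 for NES, 6 of 20 for NEFH and 5 of 16 for NEFM.

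In 3 genes whose probe sets lay mostly under background, single ones were far above it on every array. In NES a probe set of 35 bases (156639673 to 156639707) averaged 9.22 and read 8.47 to 10.36, and one near the 5′ end averaged 8.22. The neighbours of both also averaged above background, at 3.07 and 4.29 for the first and at 4.94 and 3.36 for the second. In NEFH a probe set of 86 bases (29885047 to 29885132) averaged 5.99 and read 4.88 to 7.84, while both neighbours, 12 and 36 bases away, averaged under background, at 1.81 and 1.83. In PRPH a probe set of 39 bases (49689459 to 49689497) averaged 6.55 and read 5.80 to 7.28, with 1 neighbour under background at 1.89 and the other above it at 3.42. What these probe sets hybridise to was not tested, so they do not show that the rest of the transcript was present. In INA the probe set of highest mean, at 6.22 near the 3′ end, and both its neighbours, at 5.51 and 5.71, were above background.

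**Figure D2:**
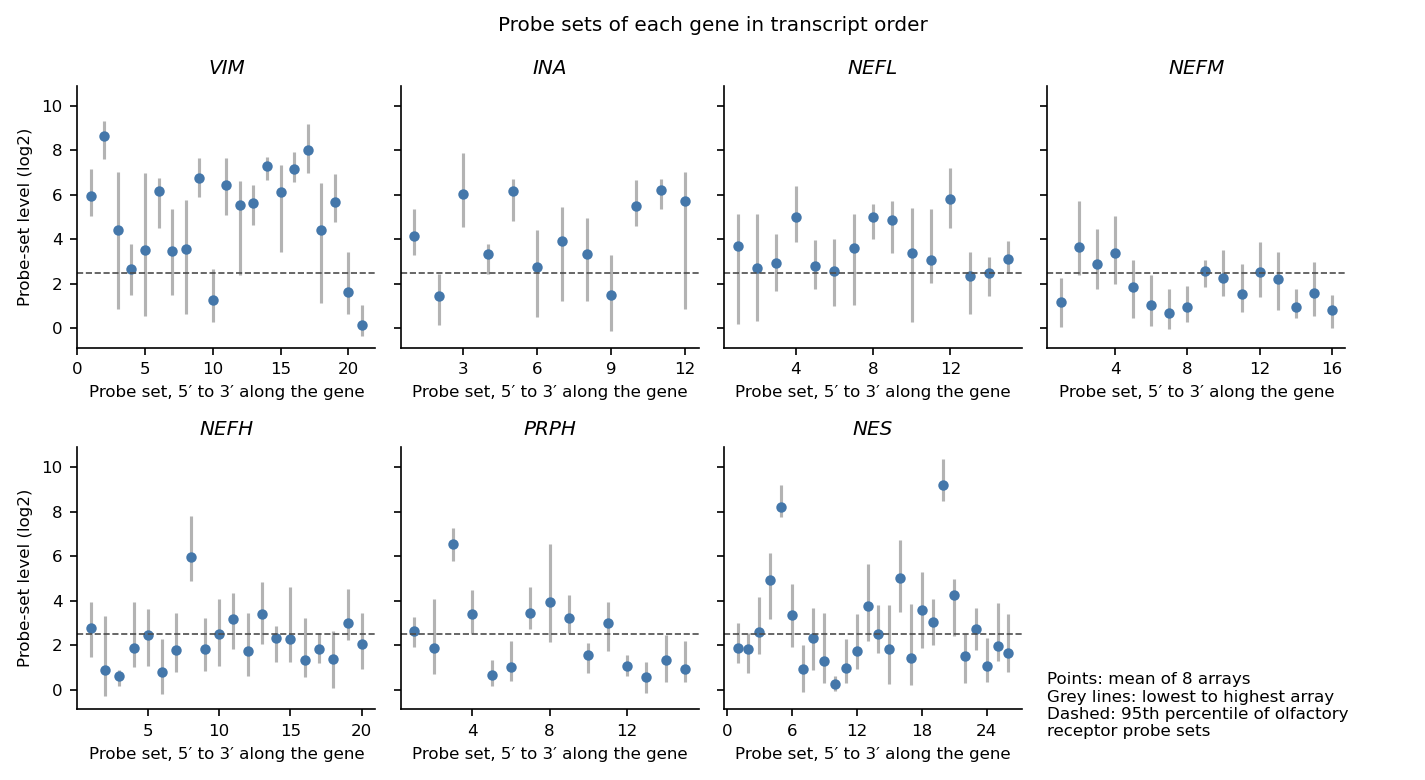
Each panel plots the mean log2 level over the 8 arrays of every probe set of 1 gene, numbered from the 5′ to the 3′ end, with grey lines from the lowest to the highest array and a dashed line at the probe-set background of 2.49. NEFL, VIM and INA lie above the line along most of their length, whereas most NEFH, NEFM, PRPH and NES probe sets lie near or under it and 1 or 2 of NES, NEFH and PRPH lie far above it.

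The spread of VIM between replicates was uneven along the gene. The second VIM probe set (17271301 to 17271390) averaged 8.64 and stayed within 7.61 to 9.35 on all arrays. The third (17271497 to 17271537), 106 bases further, read 5.41 and 6.57 in unstimulated control, 2.96 and 3.88 in control with EGF, 0.90 and 7.05 in unstimulated shELL, and 1.96 and 6.81 in shELL with EGF. So the 2 shELL pairs differed by 6.15 and 4.85 on the log2 scale there, and by -0.60 and -0.02 in the probe set before it. The eighteenth (17279281 to 17279308) behaved like the third, with 2.37 and 6.07 in unstimulated shELL and 1.14 and 5.37 in shELL with EGF. Among the 18 VIM probe sets above background, replicate 2 was higher in 14 in unstimulated shELL and in 15 in shELL with EGF. It was higher in 13 of these 18 in unstimulated control and in 7 in control with EGF.

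INA and NEFL showed the same kind of unevenness in single probe sets. The last INA probe set (105049789 to 105049896) read 0.86 on replicate 1 of shELL with EGF and 5.71 to 7.03 on the other 7 arrays, although the one before it, 32 bases away, read 6.45 on that same array. The first NEFL probe set, at the 5′ end, read 0.20 on that array and 3.20 to 5.14 on the others. The second NEFL probe set read 4.74 to 5.13 on replicate 2 of unstimulated control and of both shELL groups and 0.34 to 2.02 on the other 5 arrays. These 3 arrays were also the highest for VIM and for GAPDH, a glycolytic enzyme, and the lowest for the olfactory receptor median, at 1.16 to 1.29 against 1.53 to 2.44. The part of array quality in these patterns was not tested.

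**Figure D3:**
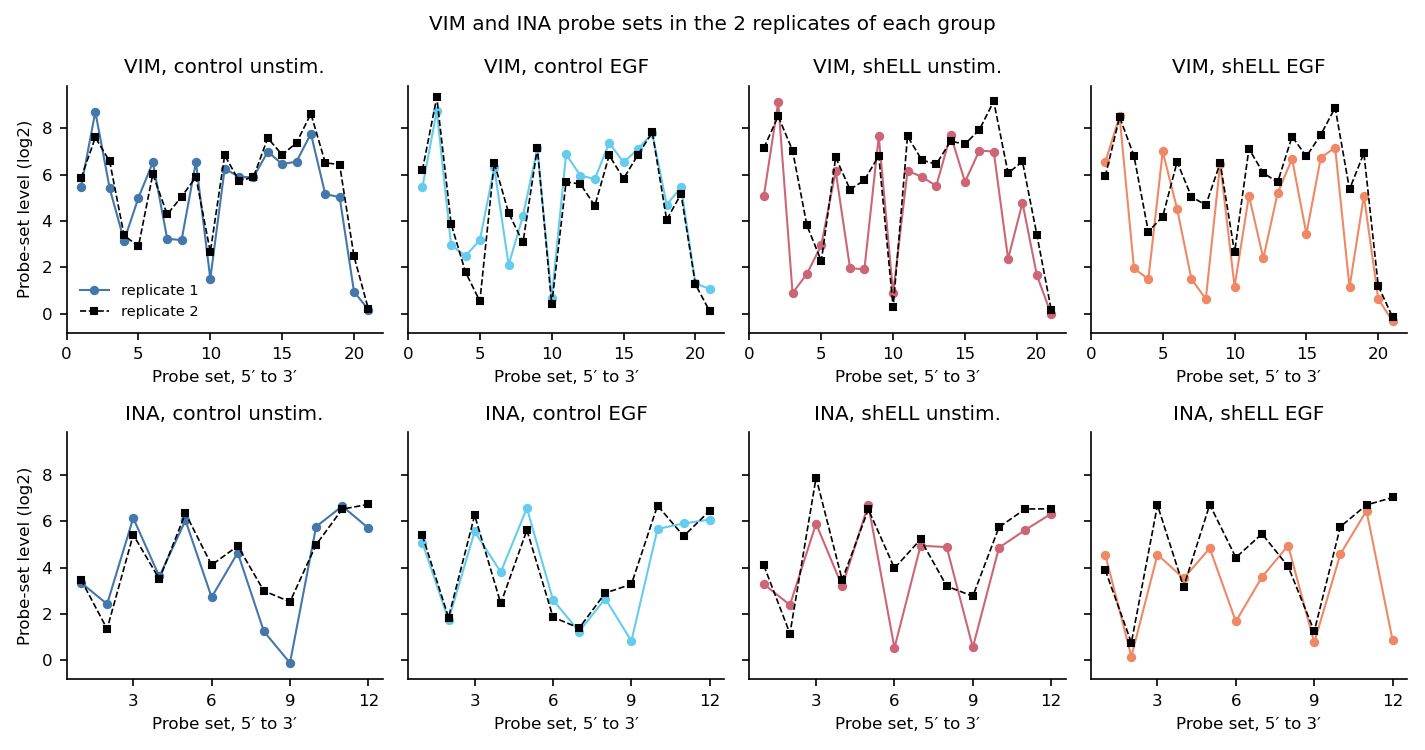
Log2 level of each VIM (top) and INA (bottom) probe set from the 5′ to the 3′ end, with replicate 1 as coloured circles and replicate 2 as black squares, in the 4 groups. The 2 VIM profiles part in the shELL groups, where the third probe set differs by 6.15 and 4.85, and the last INA probe set drops to 0.86 on replicate 1 of shELL with EGF.

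The genes closest in pattern to a member over the 8 arrays were picked from these same data, so their closeness is partly due to the picking. Among 8062 genes above background, the profiles closest to VIM, each centred on its own mean, were those of P4HB, a protein disulfide isomerase, at a root-mean-square difference of 0.10 on the log2 scale, NAGK at 0.13 and ARFIP2 at 0.13. P4HB, like VIM, was highest on replicate 2 of unstimulated shELL, at 7.53, and lowest on replicate 1 of shELL with EGF, at 5.89. The closest to INA were PIGU at 0.08, MLX at 0.09 and CHERP at 0.10, and the closest to PRPH were SECISBP2L at 0.11, ACAD8 at 0.11 and ZNF223 at 0.12. Each of these 9 genes shares the 8 arrays and their normalization with its member. VIM also moved with GAPDH, which ran from 6.61 on replicate 1 of shELL with EGF to 9.10 on replicate 2 of unstimulated control.

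The first comparison asked whether 1 h of EGF changed filament gene levels. In control cells 0 of the 7 genes passed the test, limma with Benjamini-Hochberg adjustment over all genes at 0.05, where 0.00619% of all genes, EGR1 alone, did. No member had an unadjusted p under 0.05 there, against 2.69% of all genes. The arrays with and without EGF did not overlap in 4 of 7 members, where 40.2% of all genes also separated these 2 arrays from the other 2: NEFL at a difference of 0.35 (SE 0.28), NEFH at 0.49 (SE 0.49), NEFM at -0.39 (SE 0.34) and PRPH at -0.37 (SE 0.31). All 4 had an adjusted p of 1.00, and their 95% intervals held 0. VIM differed by -0.42 (SE 0.57) and INA by -0.11 (SE 0.45), with overlapping arrays.

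In the shELL arrays EGF gave 0 of 7 calls as well, again with 0.00619% of all genes called, and no member reached an unadjusted p under 0.05, against 2.47% of all genes. PRPH differed by 0.43 (SE 0.31) and was the 1 member of 7 whose arrays did not overlap, against 22% of all genes. The gap was small, since the lower array with EGF and the higher one without both round to 3.16. Leaving out the dim replicate 1 gave 0.18, and the values as deposited gave -0.48, where the median of all genes was -0.68. VIM differed by -0.49 (95% interval -1.79 to 0.81) and INA by -0.32 (-1.34 to 0.70), and without that replicate 1 they turned to 0.25 and 0.43. NEFH differed by 0.70 (-0.40 to 1.81) and NES by 0.49 (-0.53 to 1.51), and they turned to -0.26 and -0.22 without it.

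Averaged over both lines, the largest EGF differences were 0.60 for NEFH (95% interval -0.18 to 1.38) and -0.45 for VIM (-1.37 to 0.46), and 0 of 7 were called beside 0.00619% of all genes, with 0 of 7 against 3.17% at an unadjusted p under 0.05. Without replicate 1 of shELL with EGF the NEFH difference was 0.16. The VIM difference was negative under all 17 alternatives and was never called. It ran from -1.02 on the values as deposited, where the median of all genes was -0.36, to -0.027 without replicate 2 of unstimulated shELL. Of all 21 VIM probe sets 5 were higher with EGF, with a median difference of -0.39. Without replicate 1 of shELL with EGF 11 of 21 were higher, with a median of 0.08, so the direction along the gene rested on that array. The VIM interval corresponds to a fold between 0.386 and 1.38, so a fall to less than 0.386 of the unstimulated level lay outside it. No member separated all 4 EGF arrays from all 4 others, as 2.71% of all genes did. Of the 107 kept member probe sets, 5 (4.67%) had an unadjusted p under 0.05 for EGF, against 3.22% of all probe sets, and 0 passed adjustment. Chosen after values were seen, the seventh INA probe set (105048138 to 105048239) read 4.64 and 4.93 in unstimulated control and 1.24 and 1.39 in control with EGF, and 4.95 and 5.22 against 3.60 and 5.46 in shELL. Its averaged EGF difference was -2.01 with an adjusted p of 0.97, and its neighbour on the 3′ side differed by 0.56.

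The second comparison asked whether filament genes differed between the arrays labelled shELL and control. Without EGF, 0 of 7 were called, as were 0% of all genes. NEFL was the 1 member of 7 whose arrays did not overlap, against 28.4% of all genes, with a difference of 0.18 (95% interval -0.47 to 0.82). VIM differed by 0.11 (-1.19 to 1.41), by 0.71 without replicate 1 and by -0.67 without replicate 2 of unstimulated shELL, and INA by 0.013 (-1.0 to 1.03). At an unadjusted p under 0.05 there were 0 of 7 members, against 1.28% of all genes.

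With EGF, 0 of 7 members and 0% of all genes were called. PRPH was the only member with an unadjusted p under 0.05, where 3.17% of all genes had one. Its difference was 0.88 (SE 0.31, 95% interval 0.18 to 1.58, limma adjusted p = 1.00), and both shELL arrays lay above both control arrays. PRPH and NEFL were the 2 of 7 members whose arrays did not overlap, against 24.1% of all genes. Leaving out the dim replicate 1 of shELL gave 0.66, and taking all 15 probe sets in place of the 10 kept gave 0.35. The NEFL difference had the other sign, at -0.25 (-0.89 to 0.40). VIM differed by 0.037 on average, as -0.93 between the arrays numbered 1 and 1.00 between those numbered 2, numbers that the labels do not tie to a shared culture or day.

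Averaged over both EGF states, the arrays labelled shELL gave 0 of 7 calls, beside 0% of all genes, and 0 of 7 members had an unadjusted p under 0.05, where 2.64% of all genes did. The PRPH difference was 0.48 (95% interval -0.016 to 0.98), with control arrays from 2.59 to 3.01 and shELL arrays from 2.94 to 3.79 that overlapped. The exact permutation test gave p = 0.0571 for it (two-sided, 4 arrays against 4, smallest possible 0.0286), or 0.80 adjusted over 14 such tests. The difference was positive in all 17 alternatives, from 0.12 without the probe-set filter to 0.57 with the mean of probe sets, and was never called. Of all 15 PRPH probe sets 13 were higher in shELL, but 8 of 15 without replicate 1 of shELL with EGF.

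For VIM the averaged difference was 0.074 (95% interval -0.84 to 0.99), a fold between 0.557 and 1.99, so levels that differ by less than that were not resolved. Without replicate 1 of shELL with EGF it was 0.35, and 19 of 21 VIM probe sets were then higher in shELL, against 11 of 21 with it. Without replicate 2 of unstimulated shELL it was -0.29. INA differed by -0.092 (-0.81 to 0.63), NEFL by -0.035 (-0.49 to 0.42), NEFM by -0.040 (-0.59 to 0.51), NEFH by 0.093 (-0.69 to 0.87) and NES by 0.17 (-0.55 to 0.89). Each of these 6 genes changed sign under at least 2 of the 17 alternatives. No member separated the 4 arrays of each label, as 2.59% of all genes did. Of the kept member probe sets, 4 of 107 (3.74%) had an unadjusted p under 0.05, against 2.54% of all probe sets, and 0 passed adjustment.

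The third comparison asked whether the EGF response differed between the lines, taken as the response of shELL less the response of control. It was called for 0 of 7 members and 0% of all genes, and 0 of 7 members had an unadjusted p under 0.05, against 1.73% of all genes. PRPH had the largest difference, 0.81 (95% interval -0.19 to 1.80, adjusted p = 1.00), from -0.37 in control and 0.43 in shELL. It fell to 0.043 on the values as deposited, where the median of all genes was -0.66 against -0.066 in the main fit. NEFL differed by -0.42 (-1.33 to 0.49) and VIM by -0.075 (-1.91 to 1.76). The comparisons within and between lines share arrays, so the PRPH values above are not independent of each other.

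**Figure D4:**
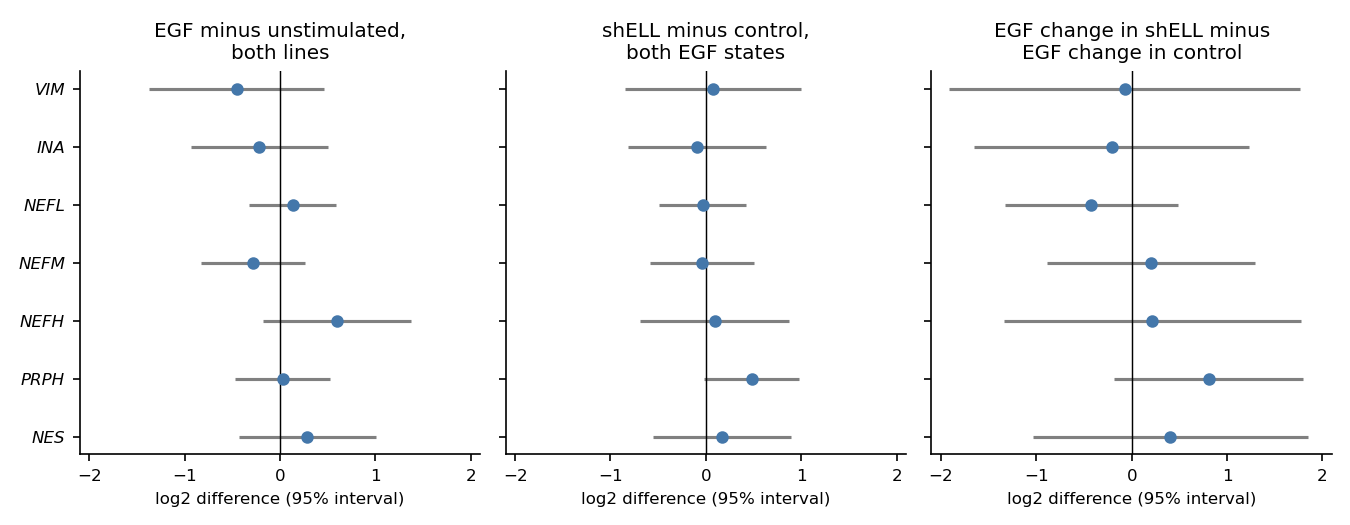
Points show the log2 difference of each gene, and lines its 95% interval, for EGF averaged over both lines, for shELL minus control averaged over both EGF states, and for the difference between the EGF responses. Every interval crosses 0, the PRPH interval for shELL minus control by the smallest margin (-0.016 to 0.98).

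Other filament and cell type genes set these values in context, and 0 genes of the 6 lists described here passed the test in any of the 7 comparisons. Of 13 other intermediate filament genes, 7 lay above background. The nuclear lamins LMNA, LMNB1 and LMNB2 averaged 3.29, 3.40 and 5.04, and DES, the muscle filament desmin, averaged 2.30, under background. The keratins of the list, named after their values were seen, averaged 6.13 (KRT8), 4.92 (KRT18) and 3.54 (KRT19) above background, and 1.80 (KRT7) and 2.34 (KRT20) under it. Of 18 measured partners and modifiers of filaments, 13 were above background, with PLEC (plectin, a linker) at 2.81, while the linkers DST and MACF1 averaged 2.47 and 2.52.

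Of 19 measured neuronal genes, 8 were above background. TUBB3, the neuronal beta tubulin, averaged 6.51 and ran from 6.17 to 6.71, and MAP2, a dendritic microtubule protein, averaged 2.67. STMN2 and ELAVL4, a microtubule regulator and an RNA-binding protein of neurons, averaged 1.61 and 1.38, under background. Of 15 neural progenitor and crest genes 5 were above it, with the RNA-binding protein MSI1 at 4.04, PAX6 at 3.25 and SOX9 at 2.70, but SOX2, often found with nestin, at 1.96. Of 15 mesenchymal genes 8 were above it, where 49.9% of all genes were, with CDH2 (N-cadherin) at 5.26, FN1 (fibronectin) at 4.96, SNAI2 at 2.69 and ZEB1 at 2.69. SNAI2 ran from 1.67 to 4.34, and its median of 2.60 lay just under background. COL1A2, DCN, TAGLN, COL3A1, S100A4, LUM and THY1, named after their values were seen, averaged from 2.17 down to 1.29, under background. Of 11 measured epithelial and kidney genes 4 were above it, with the adhesion molecule EPCAM at 5.24, while CDH1 (E-cadherin), PAX2 and PAX8 averaged 1.74, 2.18 and 1.93.

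The median difference between arrays labelled shELL and control, averaged over EGF states, was 0.11 for the other filament genes, 0.011 for the partners, -0.059 for neuronal, 0.023 for progenitor, 0.14 for mesenchymal and 0.18 for epithelial and kidney genes, against -0.0026 for all genes. At an unadjusted p under 0.05, which 2.64% of all genes reached there, stood 1 of 19 neuronal genes (NCAM1, difference 0.54), 2 of 15 mesenchymal genes (COL1A1, 0.51, and TAGLN, 0.80) and 1 of 11 epithelial and kidney genes (EPCAM, 0.76), and 0 in the other 3 lists. Each had a limma adjusted p of 1.00, and NCAM1, COL1A1 and TAGLN were named after their values were seen. TAGLN averaged 1.99 over the 8 arrays, under background, while NCAM1, COL1A1 and EPCAM averaged above it. As a check of the label, the kidney epithelium markers had 1 of 5 above background, EPCAM, with CDH1, PAX2, PAX8 and CDH16 under it, and the neuronal markers 2 of 5, TUBB3 and MAP2. Fibroblast markers had 1 of 5, COL1A1, and glial, endothelial and blood markers 0.

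Promoter sequences were available from RefSeq (GRCh38.p14) for 4 of the 7 genes, VIM, INA, PRPH and NES, as 250 bases before to 50 after the annotated start. They are shown because EGR1 was the single gene called with EGF, and the letters of an EGR-type site were looked for in these windows. Capitals mark matches on either strand to GGGCGG, the core of an SP1 site, or to TATAAA, the letters that the basal factor TBP binds.
VIM (chr10:17227991-17228290, plus strand): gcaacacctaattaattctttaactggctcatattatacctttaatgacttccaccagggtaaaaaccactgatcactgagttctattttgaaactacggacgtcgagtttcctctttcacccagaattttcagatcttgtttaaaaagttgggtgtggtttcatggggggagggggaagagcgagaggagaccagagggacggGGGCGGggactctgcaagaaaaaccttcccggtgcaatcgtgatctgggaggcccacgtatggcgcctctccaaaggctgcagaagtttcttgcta
INA (chr10:103276888-103277187, plus strand): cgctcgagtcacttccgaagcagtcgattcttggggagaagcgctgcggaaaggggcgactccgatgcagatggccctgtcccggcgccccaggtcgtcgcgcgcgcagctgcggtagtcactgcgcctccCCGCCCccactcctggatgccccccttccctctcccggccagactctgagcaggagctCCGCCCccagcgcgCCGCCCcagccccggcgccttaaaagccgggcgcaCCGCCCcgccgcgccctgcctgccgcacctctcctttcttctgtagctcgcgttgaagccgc
PRPH (chr12:49294897-49295196, plus strand): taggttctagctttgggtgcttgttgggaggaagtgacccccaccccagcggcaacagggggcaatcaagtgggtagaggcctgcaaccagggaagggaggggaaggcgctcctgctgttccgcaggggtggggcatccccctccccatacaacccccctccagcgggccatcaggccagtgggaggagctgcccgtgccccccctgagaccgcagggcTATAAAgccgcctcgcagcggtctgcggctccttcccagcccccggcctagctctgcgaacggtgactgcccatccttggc
NES (chr1:156677358-156677657, minus strand): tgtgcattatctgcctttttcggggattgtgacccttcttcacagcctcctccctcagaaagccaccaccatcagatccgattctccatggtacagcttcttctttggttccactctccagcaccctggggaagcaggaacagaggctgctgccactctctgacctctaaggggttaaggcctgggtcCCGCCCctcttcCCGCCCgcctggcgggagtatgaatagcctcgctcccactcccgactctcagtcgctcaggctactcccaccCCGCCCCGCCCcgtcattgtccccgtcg
GGGCGG occurred 4 times in INA, 4 times in NES, the last pair overlapping, once in VIM and 0 times in PRPH, and stands in 45.0% of 35116 promoters of the same length. TATAAA occurred in PRPH alone of the 4, 31 bases before the start, and stands in 11.5% of promoters. GCGNGGGCG, the letters of an EGR-type site, TGANTCA, those of an AP-1 site, and CCAAT were found in none of the 4 windows, and stand in 9.43%, 7.71% and 34.6% of all promoters. The EGR-type letters can overlap GGGCGG. The INA window had a GC content of 71.3%, PRPH 67.0%, NES 60.3% and VIM 48.0%, with a median of 58.7% over all promoters. These are letters in a fixed window, and positions in this build are not those of the deposited probe sets.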

How the data were processed

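The authors deposited log2 values per probe set, made with RMA in Affymetrix Expression Console per the submitters' processing notes (versions and annotation build not given in the sources used here), and a table of group means in log2, which lay within 5e-05 of the means of the deposited arrays. The deposited values were not on 1 scale between arrays, with upper quartiles from 2.17 to 5.16, and were quantile normalized here. Probe sets with 1 gene symbol were kept when their mean was at least 1.16, the 25th percentile over the array, and genes with at least 3 kept probe sets were summarised by median polish (10 iterations), giving 16145 genes from 209106 probe sets. Group means over all 8 arrays were compared with limma 3.58.1 in R 4.3.3 (4 residual degrees of freedom), two-sided, in 7 comparisons, with Benjamini-Hochberg adjustment over all genes or all probe sets. Exact permutation tests compared 4 arrays with 4 (35 splits). The number of arrays limits the precision of every value.

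The members and gene lists were chosen with earlier results of these data known. The named genes are all members, the first 4 measured genes of each list (1 of them is not reported here) and the 3 closest profiles of members that stood above background and varied more than the median gene. Symbols of all 7 members are current in RefSeq. Alternatives covered scaling, filter, gene summary, variance model, array weights, a replicate block and each array left out. Figures used matplotlib 3.10.9 under Python 3.11.15.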

Additional observations from a re-analysis of the deposited data

How the results depend on the processing

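Each member difference was recomputed under 17 or 18 alternative settings, which gave 861 alternative differences. None of these was called, and 161 of them had the other sign than the main difference. With 2 arrays a group, the intervals of VIM and NEFH were the widest. Of 160 alternative counts, 123 stayed within 1.5 times the main one. The main count was 0 apart from genes in the EGF comparisons described next, so many of the 123 were 0 in both. EGF in control called 1 gene, 0 as deposited, with the array median subtracted or relative to the olfactory receptor median (chosen after seeing the data), and 2 with array weights or the replicate block. EGF in shELL called 1 gene and 0 under those 5 settings, with probe sets at or above the median, with the mean of probe sets, or with only the groups compared. EGF averaged over the lines called 1 gene, 0 as deposited, with the array median subtracted or relative to the olfactory receptor median, and 2 with the mean of probe sets or the replicate block. The fits with 1 array left out have a single array in 1 group. The call for EGF in shELL was lost in each of them, and the calls for EGF in control and averaged over the lines in some. For probe sets with EGF averaged, 0 were called, 6 with eBayes trend and 2 with array weights. Weights are equal within a pair of arrays, so they could not down-weight 1 replicate. Without the probe-set filter, members above background by group mean rose from 4, 3 and 4 to 7, 6 and 7 (unstimulated control, control with EGF, unstimulated shELL) with a background of 1.54, and all 7 were above it in shELL with EGF, against 5. The causes were not tested, beyond the fewer samples or genes in some settings. As deposited, the median of all genes moved by up to -0.68 (EGF in shELL) and 0.49 (shELL without EGF), so member values there carry that shift. Replicate numbers were not taken to pair the samples: deviations of same-numbered arrays correlated at 0.37 to 0.51 among unstimulated control and both shELL groups, but at -0.31 to -0.16 between these and control with EGF, across genes. A crossed replicate block, added after seeing the data, called 1 gene in each EGF comparison.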
